A study of Homo sapiens with 15 samples.

Results

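The mature arms of the human miR-99, miR-100 and miR-125 families were followed through all 15 small RNA libraries of the study. They were chosen by name, as the arms of miR-99a, miR-99b, miR-100, miR-125a and miR-125b that both count tables list. These are 10 miRNAs, 5 from the 5p side and 5 from the 3p side of their hairpins, of 2418 miRNAs listed in the knockdown table and 2189 listed in the RIP-seq table. The study asked whether m6A, the methylated form of adenosine, occurs in miRNAs and whether miRNA levels depend on FTO, an enzyme that removes this methyl group.

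All libraries came from FTO1C1, FTO2D4 and FTO3C3, which derive from HEK293, a line of human embryonic kidney origin. The paper describes these lines as Flp-In T-Rex derivatives, uninduced in the knockdown experiment. Each is a single clone, so a group of 3 libraries holds 1 library of each clone. In the knockdown experiment the cells were transfected with 10 nM of scrambled siRNA or of siRNA specific for FTO, and small RNA was taken after 48 h. In the RIP-seq experiment small RNA was sequenced as input, after precipitation with an antibody against m6A, or after precipitation with an IgG isotype control. The labels of the RIP-seq libraries name no siRNA. The libraries of 1 clone within an experiment were treated as a pair. The FTO mRNA is not among the miRNA counts, so the knockdown itself was not checked here.

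A miRNA gene is transcribed as a long precursor from which a hairpin is cut, and the 2 sides of the hairpin give the 5p and the 3p arm. The loaded arm recognises its target mRNAs mainly through the seed, bases 2 to 8 from its 5′ end, so arms with the same seed share many predicted targets. The miR-99/100 and miR-125 families are old relatives that lie beside let-7 genes in the same transcripts, and they are known as regulators of growth signalling (miR-99/100, through targets such as MTOR) and of the timing of differentiation (miR-125, through targets such as LIN28). The m6A antibody used here binds the modified base, and the IgG control measures what is carried along without it.

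All 10 arms were matched by name to mature miRNAs of RefSeq (GRCh38.p14). The 5p arms are shown because their sequences define the families and show how few bases separate the relatives; the seed is in capitals.
hsa-miR-99a-5p: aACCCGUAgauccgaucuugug
hsa-miR-100-5p: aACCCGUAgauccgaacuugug
hsa-miR-99b-5p: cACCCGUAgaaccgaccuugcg
hsa-miR-125a-5p: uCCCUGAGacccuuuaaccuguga
hsa-miR-125b-5p: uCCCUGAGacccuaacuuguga
Counting from 1 at the 5′ end, hsa-miR-99a-5p and hsa-miR-100-5p differ only by U16A and share their first 15 bases. From hsa-miR-99a-5p to hsa-miR-99b-5p there are 4 substitutions, A1C, U11A, U16C and U21C. hsa-miR-125a-5p and hsa-miR-125b-5p share their first 13 bases. Seeds were compared among the listed miRNAs with a RefSeq sequence, 2122 of 2418 in the knockdown and 1923 of 2189 in the RIP-seq table. Among these, 1 miRNA outside the families, hsa-miR-4319, carries the miR-125 seed, and no other carries the seed of miR-99/100.

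The 3p arms are shown because 2 of them tell the genes of miR-125b apart, again with the seed in capitals.
hsa-miR-99a-3p: cAAGCUCGcuucuaugggucug
hsa-miR-99b-3p: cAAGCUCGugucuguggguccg
hsa-miR-125a-3p: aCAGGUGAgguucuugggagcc
hsa-miR-125b-1-3p: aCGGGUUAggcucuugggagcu
hsa-miR-125b-2-3p: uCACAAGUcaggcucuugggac
The 3p arms of miR-99a and miR-99b share a seed and differ by C9U, U10G, A14G and U21C. The 3 arms of the miR-125 hairpins have a seed each. The 2 genes for miR-125b make the same 5p arm but different 3p arms, so that hsa-miR-125b-5p cannot be assigned to a gene whereas hsa-miR-125b-1-3p and hsa-miR-125b-2-3p can.

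The genes lie in 3 clusters, each with 1 let-7 gene between a miR-99/100 and a miR-125 gene (RefSeq, GRCh38.p14). MIR99A, MIRLET7C and MIR125B2 span chr21:16539101-16590311 on the plus strand within the host gene MIR99AHG. MIR99B, MIRLET7E and MIR125A lie close together at chr19:51692618-51693327 on the plus strand, within SPACA6 and SPACA6-AS1. MIR100, MIRLET7A2 and MIR125B1 span chr11:122099769-122152296 on the minus strand within MIR100HG. The compact miR-99b cluster covers 0.71 kb, against 51.2 kb and 52.5 kb for the miR-99a and miR-100 clusters.

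The depth was 1991317 to 3876806 miRNA reads in the knockdown libraries and 1408702 to 1500357 in the inputs, but 569501 to 4973238 in the m6A and only 186446 to 786688 in the IgG precipitates. Levels are given in RPM, reads per 1000000 miRNA reads of the library. A single miRNA, hsa-miR-6080, took 41.3% to 47.8% of the reads of the m6A libraries, 58.0% to 71.6% of the IgG libraries and 15.5% to 28.4% of the inputs, which lowers the RPM of everything else by unequal amounts. Its count was 563404 in both precipitates of FTO2D4. In these libraries 6 miRNAs had equal counts, among them hsa-miR-548v as well, and these identities were not resolved here. Of the miRNAs known to be abundant in HEK293, hsa-miR-10a-5p averaged 274138 RPM with scrambled siRNA and 125480 RPM in the input. Of the markers of other cells, hsa-miR-223-3p of white cells averaged 55.7 RPM with scrambled siRNA, 584 RPM in the input, 1125 RPM in the m6A and 26.0 RPM in the IgG libraries. The 9 of 10 such markers listed in the knockdown table summed to 117 to 143 RPM with scrambled and 156 to 195 RPM after FTO siRNA, and the 8 listed in the RIP-seq table to 490 to 924 RPM in the input, 945 to 2192 RPM in the m6A and 128 to 209 RPM in the IgG libraries. Without hsa-miR-223-3p the sums were 72.6 to 87.7 RPM with scrambled and 108 to 118 RPM after FTO siRNA. They were then 78.0 to 102 RPM in the input, 232 to 339 RPM in the m6A and 99.8 to 182 RPM in the IgG libraries. None of the listed markers was at 0 throughout a group, and their part in the results was not tested.

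In cells with scrambled siRNA, hsa-miR-99b-5p was the highest of the 10 arms. It reached 753, 835 and 666 RPM in FTO1C1, FTO2D4 and FTO3C3 (mean 751 ± 84.4, SD, n = 3), which made it the 97th to 121st most abundant miRNA. Below it stood a group of 3 arms whose ranges overlap from neighbour to neighbour: hsa-miR-125b-2-3p with 402 ± 64.0 RPM, hsa-miR-99a-5p with 354 ± 47.9 RPM and hsa-miR-125a-5p with 346 ± 54.2 RPM (SD, n = 3). A clear step separated them from hsa-miR-125b-5p, the arm usually described as the leading product of miR-125b, which had 66.0, 48.7 and 74.8 RPM. The rest followed in the order hsa-miR-99a-3p (36.2 ± 8.11 RPM), hsa-miR-99b-3p (27.6 ± 2.27), hsa-miR-125a-3p (24.8 ± 0.323), hsa-miR-100-5p (12.9 ± 1.0) and hsa-miR-125b-1-3p (10.6 ± 2.25; SD, n = 3 for each). Among these, hsa-miR-99a-3p overlapped hsa-miR-99b-3p and hsa-miR-100-5p overlapped hsa-miR-125b-1-3p. Both products that come only from the miR-100 cluster thus stood at the bottom.

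**Figure D1:**
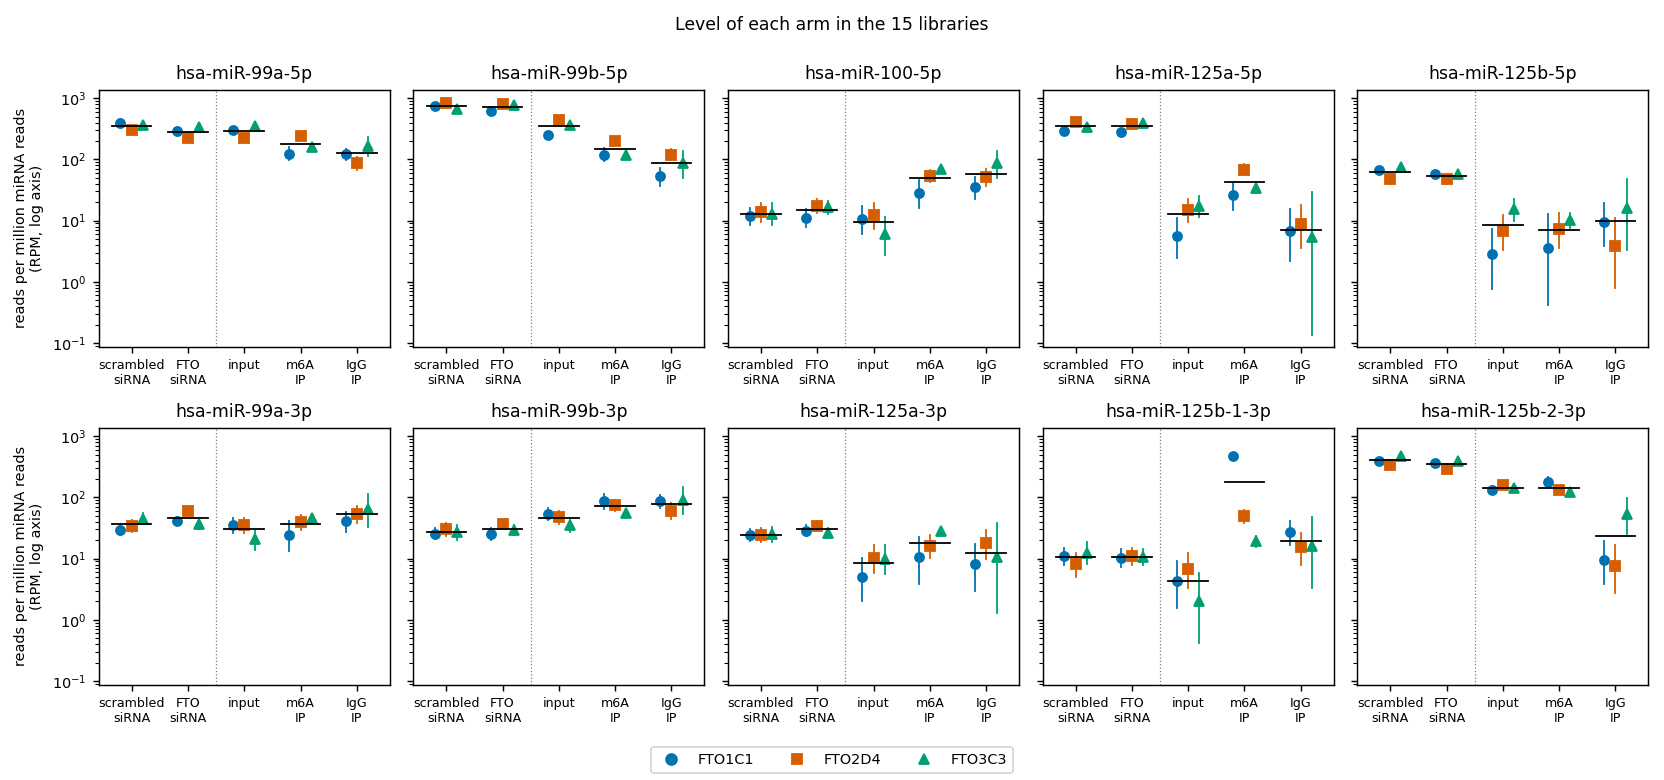
Level of each of the 10 arms in every library, as RPM on a log axis. Symbols mark the clone, vertical lines the 95% exact (Clopper-Pearson) interval of the count, which covers counting error only, and black bars the mean of 3 libraries, and a dotted line separates the knockdown from the RIP-seq libraries. hsa-miR-100-5p lies above its input in all m6A and all IgG libraries, and hsa-miR-125b-1-3p reaches 472 RPM in 1 m6A library.

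The first question was whether these arms change when FTO is knocked down. None of the 10 arms was called at an adjusted p of 0.05 (edgeR quasi-likelihood test, clone as a block, Benjamini-Hochberg over 2374 miRNAs), beside 4.97% of all miRNAs called higher and 0.505% called lower. No call among 10 arms is near these shares. In this fit none of the 10 had an unadjusted p under 0.05, against 621 of the 2374 miRNAs. With TMM factors, which bring the median of all miRNAs to 0, hsa-miR-99a-5p, hsa-miR-125b-5p and hsa-miR-125b-2-3p did, all lower (382 of all miRNAs). The same arms did with DESeq2 (202 of all). Without FTO3C3, hsa-miR-99a-5p (lower) and hsa-miR-99a-3p (higher) did (732 of all). Their log2 fold changes ran from -0.32 to 0.34 with a median of 0.03, while the median of all miRNAs tested was 0.29.

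hsa-miR-99a-5p stood lowest of the 10 arms in this comparison. It had 395, 301 and 365 RPM with scrambled siRNA and 296, 220 and 340 RPM with FTO siRNA, the clones in the same order as above. It was lower in 3 of 3 clones, yet the groups overlap, and its log2 fold change of -0.32 ± 0.16 (SE) had an adjusted p of 0.214 by edgeR. With DESeq2 as the test it was the 1 arm called (log2 fold change -0.62, adjusted p = 0.0347), and over all alternatives its adjusted p ran from 0.0347 to 0.621. DESeq2 called 33 of all 2418 miRNAs higher and 58 lower, and left 1641 without an adjusted p. Among the latter were hsa-miR-99b-3p, hsa-miR-100-5p, hsa-miR-125a-3p and hsa-miR-125b-1-3p, which could therefore not be called. hsa-miR-99a-3p, from the other side of the same hairpin, had 29.4, 34.1 and 45.2 RPM with scrambled siRNA and 41.4, 59.8 and 36.6 RPM with FTO siRNA. Its log2 fold change of 0.34 ± 0.24 (SE) was the highest of the 10, but FTO3C3 moved the other way from FTO1C1 and FTO2D4 (edgeR adjusted p = 0.387).

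On the scale of total miRNA reads, the abundant arms stayed close to their control values. hsa-miR-99b-5p had 626, 789 and 760 RPM with FTO siRNA (log2 fold change -0.05, 95% interval -0.39 to 0.29). hsa-miR-125a-5p had 294, 403 and 342 RPM with scrambled and 284, 382 and 390 RPM with FTO siRNA (0.02, interval -0.31 to 0.36). hsa-miR-125b-2-3p had 399, 340 and 468 RPM with scrambled and 370, 295 and 399 RPM with FTO siRNA (-0.18, interval -0.51 to 0.14). These intervals leave out a doubling or a halving of the 3 arms on this scale, though not smaller differences. With TMM factors the log2 fold changes of the 3 arms were -0.34, -0.27 and -0.47, in the same order, without a call (edgeR adjusted p = 0.363, 0.455 and 0.135). hsa-miR-125b-5p was lower in 3 of 3 clones, at 57.8, 47.4 and 58.6 RPM with FTO siRNA, with overlapping groups and a log2 fold change of -0.20 ± 0.19 (SE; edgeR adjusted p = 0.516). For hsa-miR-99b-3p, hsa-miR-100-5p, hsa-miR-125a-3p and hsa-miR-125b-1-3p the log2 fold changes were 0.13, 0.20, 0.27 and 0.03, each turning negative with TMM factors, which bring the median of all miRNAs to 0.

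In the RIP-seq inputs, hsa-miR-99b-5p (351 ± 91.7 RPM) and hsa-miR-99a-5p (294 ± 64.4 RPM) led with overlapping ranges, followed by hsa-miR-125b-2-3p (145 ± 12.2 RPM; SD, n = 3). hsa-miR-125a-5p had only 5.68, 15.1 and 17.3 RPM, and hsa-miR-125b-5p only 2.84, 6.85 and 15.3 RPM. They rested on 8, 22 and 26 reads and on 4, 10 and 23 reads. The knockdown and RIP-seq tables were made from separate experiments and were not tested against each other, but side by side the miR-125 5p arms together had 360 to 451 RPM with scrambled siRNA and 8.52 to 32.7 RPM in the input. The miR-99/100 5p arms together had 1044 to 1159 RPM and 562 to 727 RPM.

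The next question was which arms the m6A antibody brought down beyond the IgG control. Of the 9 arms with enough reads to be tested, 3 were higher in the m6A libraries and none was lower (edgeR, Benjamini-Hochberg), beside 38.6% of all 2054 miRNAs higher and 1.27% lower. All 3 came from miR-125 hairpins, and 3 of 9 is near the share of all miRNAs. The median log2 fold change was 0.50 for the 9 arms and 0.83 for all miRNAs.

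hsa-miR-125a-5p had 26.3, 68.2 and 34.0 RPM in the m6A libraries of FTO1C1, FTO2D4 and FTO3C3 and 6.74, 8.90 and 5.36 RPM in the IgG libraries. The groups do not overlap, although the IgG values rest on 5, 7 and 1 reads. All its IgG values lay below the filter on low counts, so the arm was tested only through the m6A libraries, where it is high. Its call and the lack of overlap carry that selection with them. Without the filter the adjusted p was 0.00271 (edgeR). The log2 fold change was 2.54 ± 0.47 (SE; edgeR adjusted p = 0.00284), and within the clones the m6A level was 3.91, 7.67 and 6.34 times the IgG level. Its adjusted p stayed under 0.05 in 9 of 10 alternatives (range 0.000642 to 0.0564, the highest with DESeq2).

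hsa-miR-125b-2-3p, the product of the MIR125B2 gene, had 176, 133 and 125 RPM in the m6A libraries and 9.44, 7.63 and 53.6 RPM in the IgG libraries. Again the groups do not overlap, and the highest IgG value stems from 10 reads in the shallowest library. This arm, too, needed its m6A libraries to pass the filter. Its log2 fold change was 3.17 ± 0.61 (SE; edgeR adjusted p = 0.00343). The m6A level was 18.6 and 17.4 times the IgG level in FTO1C1 and FTO2D4 but 2.32 times in FTO3C3. Without FTO3C3 the log2 fold change was 4.15, and without FTO2D4 it was 2.69 with an adjusted p of 0.0786, the highest over its 9 alternatives (from 5.86e-05) and the only 1 of them that lost the call.

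hsa-miR-125b-1-3p, made by MIR125B1, owed its difference mainly to 1 library. It had 472, 49.2 and 19.1 RPM in the m6A libraries and 27.0, 15.3 and 16.1 RPM in the IgG libraries. The groups overlap, because the m6A library of FTO3C3 lies below the IgG library of FTO1C1. The log2 fold change was 2.54 ± 0.69 (SE; edgeR adjusted p = 0.0177), and the m6A level was 17.5, 3.22 and 1.19 times the IgG level within the clones. Without FTO1C1 the log2 fold change was 1.23 (adjusted p = 0.147), and without FTO2D4 it was 3.15 (adjusted p = 0.0941). Over its alternatives the adjusted p ran from 0.00443 to 0.147, and TMM factors, DESeq2 and totals without hsa-miR-6080 lost the call as well.

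The arms of miR-99 and miR-100 were not called against IgG. hsa-miR-99b-5p came nearest, with 119, 199 and 119 RPM against 52.6, 120 and 85.8 RPM, higher in 3 of 3 clones (log2 fold change 0.80 ± 0.33, SE; edgeR adjusted p = 0.0802). That difference shrank to 0.047 with TMM factors, 0.006 with DESeq2 and 0.11 with totals that leave out hsa-miR-6080. hsa-miR-99a-5p had 125, 244 and 160 RPM against 121, 87.7 and 166 RPM, so that only FTO2D4 showed a difference of any size. hsa-miR-100-5p had 28.1, 54.3 and 69.0 RPM against 35.1, 52.1 and 85.8 RPM, nearly level in each clone (log2 fold change -0.18, 95% interval -0.93 to 0.57). The 3p arms hsa-miR-99a-3p, hsa-miR-99b-3p and hsa-miR-125a-3p had log2 fold changes of -0.53, -0.12 and 0.38 with edgeR adjusted p values of 0.25, 0.812 and 0.572. hsa-miR-125b-5p, at 3.51, 7.34 and 10.2 RPM against 9.44, 3.81 and 16.1 RPM, fell below the filter on low counts. It rested on 2, 10 and 51 reads in the m6A and 7, 3 and 3 reads in the IgG libraries. Without the filter its log2 fold change was -0.29 ± 0.68 (SE; edgeR adjusted p = 0.768, range over its alternatives 0.0258 to 0.922), and the lowest p belongs to its reads summed with those of hsa-miR-125a-5p (1.59).

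The split between higher and lower depended on the scale. With TMM factors 2 arms were higher (hsa-miR-125a-5p and hsa-miR-125b-2-3p) and 2 lower (hsa-miR-99a-3p and hsa-miR-100-5p), and all miRNAs split into 453 higher and 302 lower in place of 792 and 26. With totals that leave out hsa-miR-6080, 2 arms were higher and 1 lower, beside 446 higher and 257 lower of all 1909 miRNAs.

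**Figure D2:**
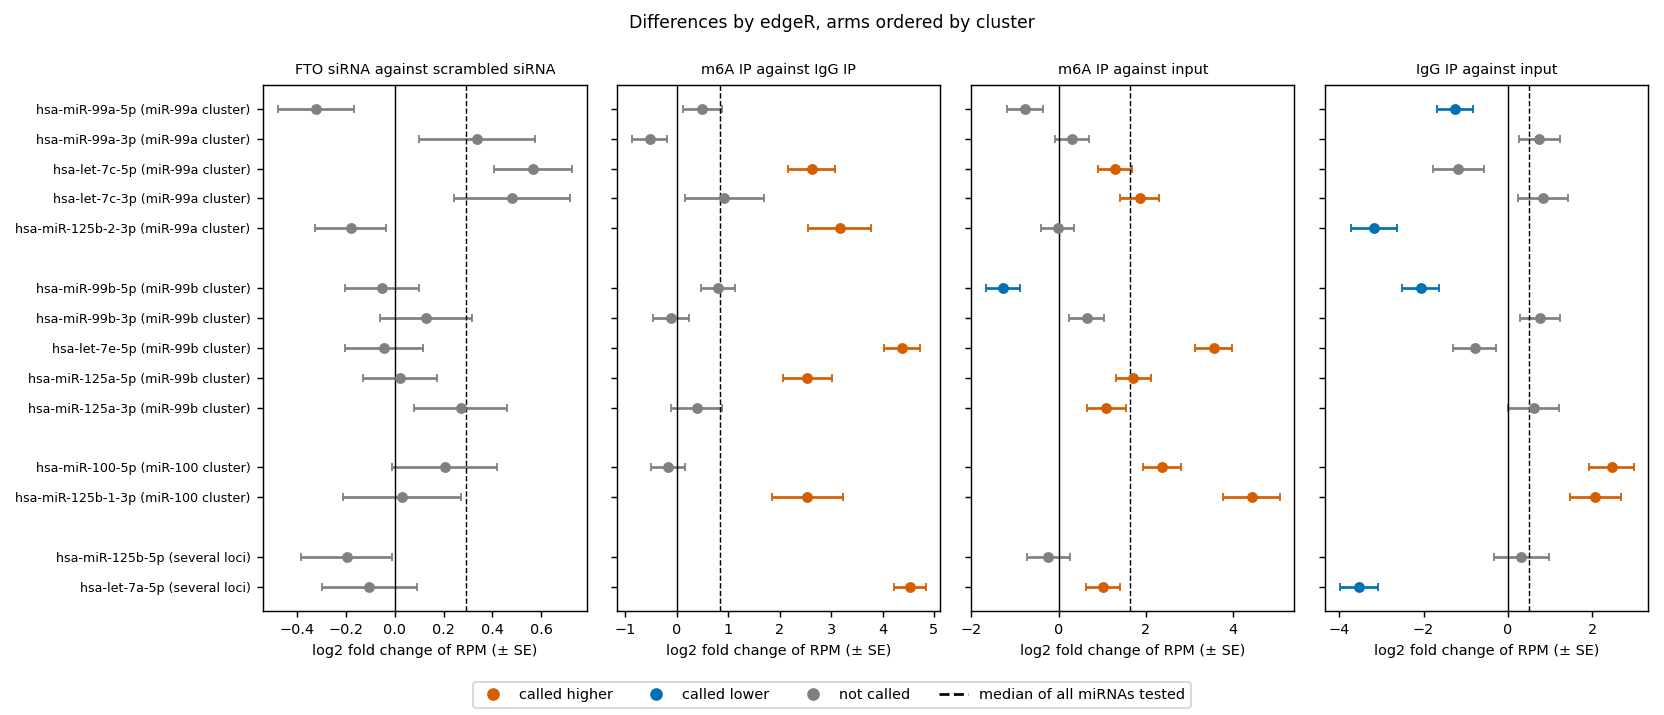
Log2 fold change of each arm and of the let-7 arms of the same clusters in the 4 comparisons, with bars of 1 standard error (edgeR), n = 3 libraries a group. Orange marks arms called higher, blue arms called lower and grey arms not called at an adjusted p of 0.05, and the dashed line is the median of all miRNAs tested. No arm is called in the knockdown, and hsa-miR-100-5p is higher than the input in both precipitates but level between them.

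Against the input, 4 arms were higher and 1 lower in the m6A libraries (edgeR, Benjamini-Hochberg), beside 66.8% of all 2174 miRNAs higher and 10.5% lower. The median log2 fold change was 0.48 for the 10 arms and 1.65 for all miRNAs, so most arms lay below the middle of the table even where they were above 0. The comparisons of both precipitates with the input and with each other share libraries and are not independent of one another.

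hsa-miR-125b-1-3p had the largest difference of the 10 arms. It had 4.26, 6.85 and 2.00 RPM in the input, from 6, 10 and 3 reads, against 472, 49.2 and 19.1 RPM in the m6A libraries. The groups do not overlap, and the log2 fold change was 4.43 ± 0.65 (SE; edgeR adjusted p = 9.34e-07). It was 2.98 without FTO1C1 and 5.55 without FTO2D4, and its adjusted p stayed under 0.05 in 9 of 9 alternatives (highest 0.00802). All its input values lay below the filter on low counts, so the arm was tested only through the m6A libraries, where it is high. Its calls and the lack of overlap carry that selection with them.

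hsa-miR-100-5p rose from 10.7, 12.3 and 6.00 RPM in the input to 28.1, 54.3 and 69.0 RPM in the m6A libraries. The groups do not overlap, and the log2 fold change was 2.37 ± 0.44 (SE; edgeR adjusted p = 2.13e-05). The m6A level was 2.64, 4.40 and 11.5 times the input, which rested on 15, 18 and 9 reads. The FTO3C3 input lay below the filter, so the arm needed its m6A libraries to pass it. The call was lost with TMM factors (0.84, adjusted p = 0.0829) and DESeq2 (0.80, adjusted p = 0.202), and over the alternatives the adjusted p ran from 4.85e-08 to 0.202.

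Both arms of miR-125a were higher as well. Their FTO1C1 inputs lay below the filter, so both arms needed their m6A libraries to pass it. For hsa-miR-125a-5p the groups do not overlap and the m6A level was 4.64, 4.53 and 1.96 times the input (log2 fold change 1.71 ± 0.40, SE; edgeR adjusted p = 0.000399), close to the median of all miRNAs. This call was lost with TMM factors (0.14, adjusted p = 0.785) and DESeq2 (0.16, adjusted p = 0.823), at the upper end of a range that starts at 7.85e-06. hsa-miR-125a-3p had 4.97, 10.3 and 10.0 RPM in the input and 10.5, 16.1 and 28.3 RPM in the m6A libraries (1.10 ± 0.45, SE; edgeR adjusted p = 0.0272). That small difference turned to -0.48 with TMM factors and -0.50 with DESeq2. It was 0.80 (adjusted p = 0.18) without FTO3C3 and 1.35 (adjusted p = 0.0541) without FTO2D4, within a range of adjusted p from 0.00344 to 0.496.

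hsa-miR-99b-5p was the arm that fell. It went from 253, 434 and 365 RPM in the input to 119, 199 and 119 RPM in the m6A libraries, without overlap between the groups. The log2 fold change was -1.28 ± 0.39 (SE; edgeR adjusted p = 0.00419), and the m6A level was 0.473, 0.458 and 0.325 times the input. With totals that leave out hsa-miR-6080 it was -0.82 (adjusted p = 0.093, the highest over its alternatives, which start at 1.68e-13). Its relative hsa-miR-99a-5p had 298, 227 and 356 RPM in the input against 125, 244 and 160 RPM (-0.77 ± 0.41, SE; edgeR adjusted p = 0.0846). Without FTO2D4, the clone that went the other way, it was -1.20 with an adjusted p of 0.037, and it was also called lower with TMM factors (-2.32, adjusted p = 0.000978) and DESeq2 (-2.35, adjusted p = 6.9e-08), within a range of adjusted p up to 0.545. hsa-miR-125b-2-3p was level at 133, 158 and 143 RPM against 176, 133 and 125 RPM (-0.02, 95% interval -0.81 to 0.77). It was called lower with TMM factors (-1.57, adjusted p = 0.00254) and DESeq2 (-1.59, adjusted p = 8.43e-05), within a range of adjusted p up to 0.99. hsa-miR-99a-3p, hsa-miR-99b-3p and hsa-miR-125b-5p had log2 fold changes of 0.31, 0.64 and -0.23 and were not called. With TMM factors the 10 arms split into 1 higher and 6 lower, all miRNAs into 575 higher and 614 lower in place of 1452 and 229. With totals that leave out hsa-miR-6080 the arms split into 5 higher and 0 lower, beside 1601 higher and 147 lower of all 2183 miRNAs.

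The IgG control was compared with the input to see what was carried along without the m6A antibody. Of the 9 arms tested, 2 were higher and 3 lower in the IgG libraries (edgeR, Benjamini-Hochberg), beside 36.8% of all 1941 miRNAs higher and 21.8% lower. The median log2 fold change was 0.60 for the 9 arms and 0.49 for all miRNAs. In this fit the spread was estimated as the same for all miRNAs, so that its p-values rest on that assumption more than on the 3 pairs of libraries.

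The 2 arms that were higher both come from the miR-100 cluster. hsa-miR-100-5p had 35.1, 52.1 and 85.8 RPM in the IgG libraries, 3.29, 4.23 and 14.3 times its input (log2 fold change 2.45 ± 0.53, SE; edgeR adjusted p = 1.19e-05). hsa-miR-125b-1-3p had 27.0, 15.3 and 16.1 RPM, 6.33, 2.23 and 8.05 times its input (2.07 ± 0.61, SE; edgeR adjusted p = 0.00168). Neither arm overlaps its input. The IgG values rest on 26, 41 and 16 reads for hsa-miR-100-5p and on 20, 12 and 3 reads for hsa-miR-125b-1-3p. The FTO3C3 input values rest on 9 and 3 reads. Both arms needed their IgG libraries, where they are high, to pass the filter on low counts. For hsa-miR-125b-1-3p all input values lay below it. The call of hsa-miR-125b-1-3p was lost without FTO1C1 (1.73, adjusted p = 0.0967), with DESeq2 (1.60, adjusted p = 0.0773) and with all 9 libraries in 1 fit (1.84, adjusted p = 0.0531), within a range that starts at 2.6e-08, and without FTO2D4 its log2 fold change was 2.72.

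hsa-miR-125b-2-3p fell the most of the 9 arms, from 133, 158 and 143 RPM in the input to 9.44, 7.63 and 53.6 RPM in the IgG libraries (log2 fold change -3.17 ± 0.54, SE; edgeR adjusted p = 3.51e-08). The IgG level was 0.0707, 0.0484 and 0.376 times the input, and without FTO3C3 the log2 fold change was -4.07. hsa-miR-99b-5p fell to 52.6, 120 and 85.8 RPM, 0.208, 0.275 and 0.235 times its input (-2.07 ± 0.44, SE; edgeR adjusted p = 1.08e-05). hsa-miR-99a-5p fell to 121, 87.7 and 166 RPM, 0.407, 0.386 and 0.467 times its input (-1.26 ± 0.43, SE; edgeR adjusted p = 0.00659). None of the 3 overlaps its input. The call of hsa-miR-99a-5p was lost without FTO1C1 (-1.24, adjusted p = 0.114) and with totals that leave out hsa-miR-6080 (-0.12, adjusted p = 0.789), within a range from 6.54e-06 to 0.789. The latter totals gave 6 arms higher and 2 lower, beside 1231 higher and 273 lower of all 1975 miRNAs. The 3p arms hsa-miR-99a-3p and hsa-miR-99b-3p, at 0.75 and 0.76 as reported, were among those then called higher. hsa-miR-125a-5p fell below the filter, with 8, 22 and 26 reads in the input and 5, 7 and 1 in the IgG libraries.

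The share of reads from the 5p side of each hairpin does not depend on the total of a library. In cells with scrambled siRNA it was 93.1%, 89.8% and 89.0% for miR-99a, 96.7%, 96.5% and 96.1% for miR-99b, and 92.3%, 94.2% and 93.2% for miR-125a. For miR-125b, with the 3p arms of both genes added, it was only 13.9%, 12.3% and 13.5%, so that 3p reads outnumbered 5p reads, mainly through hsa-miR-125b-2-3p. FTO siRNA left these shares near the controls, at means of 85.5%, 96.0%, 92.1% and 13.0%. The largest difference was in miR-99a, where FTO2D4 went to 78.6% (95% exact interval 75.9% to 81.2%), and its groups overlap (exact permutation test, two-sided, p = 0.3).

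In the RIP-seq libraries the 5p share of miR-99b fell from 82.4%, 90.1% and 91.0% in the input to 58.1%, 72.7% and 68.2% in the m6A and 37.9%, 66.2% and 48.5% in the IgG libraries. The input does not overlap either precipitate. For miR-99a the shares were 89.4%, 86.5% and 94.5% in the input, 83.5%, 86.0% and 77.7% in the m6A and 75.0%, 62.2% and 72.1% in the IgG libraries, and no pair of these groups overlaps. The gap between input and m6A is within counting error, since FTO2D4 had 86.46% and 86.05%. The 95% exact intervals of these values were 82.62% to 89.72% and 82.19% to 89.34%. For miR-125a they were 53.3%, 59.5% and 63.4% in the input, 71.4%, 80.9% and 54.5% in the m6A and 45.5%, 33.3% and 33.3% in the IgG libraries, the last from 3 reads. The miR-125b share stayed low, at 2.02%, 4.0% and 9.58% in the input and 0.539%, 3.88% and 6.66% in the m6A libraries. In the IgG libraries, where hsa-miR-125b-2-3p was low, it was 20.6%, 14.3% and 18.8%, from 34, 21 and 16 reads. With 3 libraries against 3, an exact permutation test cannot go below p = 0.1. That value was reached for each pair of groups without overlap, and was 0.185 after Benjamini-Hochberg adjustment over the 24 comparisons of shares made here. Other hairpins were not compared in this way, so nothing here is shown to be particular to these families.

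**Figure D3:**
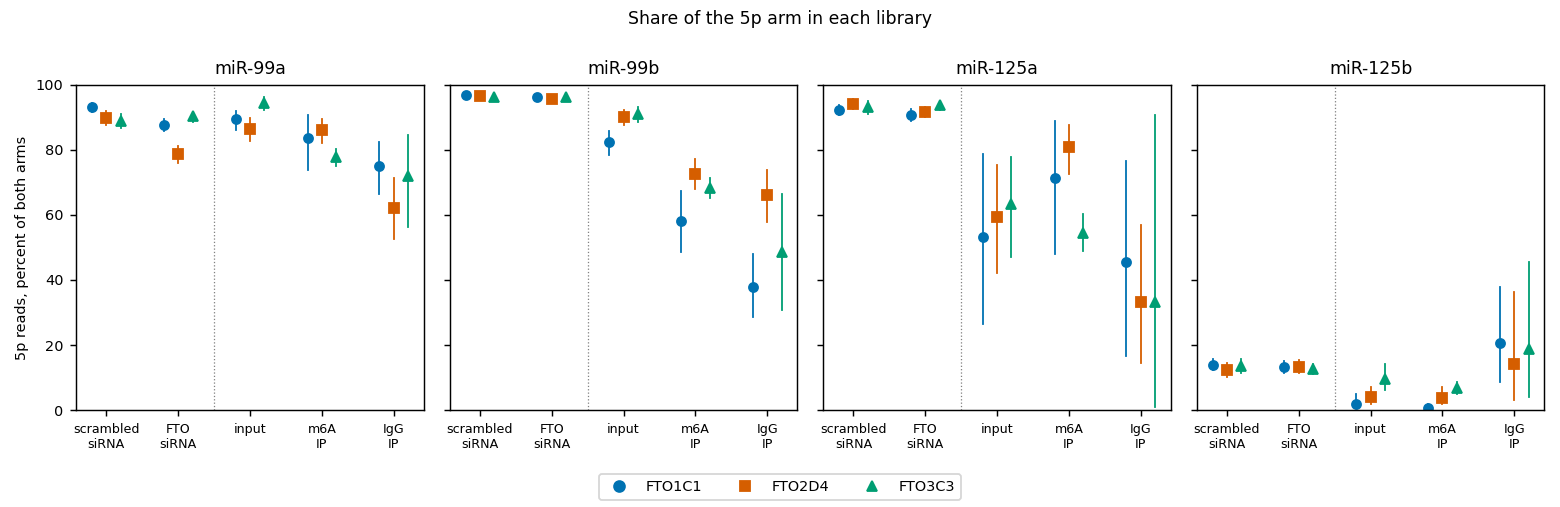
Reads of the 5p arm as a percent of the reads of both arms, for each hairpin and library, with the 95% exact interval of the counts (for miR-125b, both 3p arms are added). The 5p share of miR-99a and miR-99b is lower in every IgG library than in any input, whereas for miR-125b the 3p arms hold most reads in every library.

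The balance between close relatives was looked at in the same way. hsa-miR-100-5p made up 2.91%, 4.38% and 3.46% of the reads of itself and hsa-miR-99a-5p in the scrambled controls, and 3.65%, 7.42% and 4.63% after FTO siRNA. It made up 3.45%, 5.14% and 1.66% in the input, but 18.4%, 18.2% and 30.1% in the m6A and 22.4%, 37.3% and 34.0% in the IgG libraries. Neither precipitate overlaps the input (exact permutation test, two-sided, p = 0.1 for each), while the m6A and IgG libraries overlap (p = 0.2). These tests do not use the pairing by clone. Within the clones the share was lower in the m6A than in the IgG library in 3 of 3 and higher after FTO siRNA in 3 of 3. The matching rule of the study asks for more matched bases than the first 15 that these arms share. The arms differ by 1 base, and whether reads of either arm were counted for the other was not tested. Added up, the miR-99/100 5p arms fell against the input by 0.85 (m6A) and 1.31 (IgG) on the log2 scale, which is the direction of hsa-miR-99a-5p and hsa-miR-99b-5p and opposite to that of hsa-miR-100-5p.

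Within the miR-125 seed family, hsa-miR-125b-5p made up 33.3%, 31.3% and 46.9% of the reads of both 5p arms in the input and 11.8%, 9.71% and 23.2% in the m6A libraries, without overlap (exact permutation test, two-sided, p = 0.1). In the IgG libraries it made up 58.3%, 30.0% and 75.0%, of 12, 10 and 4 reads, which overlaps the input (exact permutation test, p = 0.4). In the scrambled controls it made up 18.3%, 10.8% and 18.0%, after FTO siRNA 16.9%, 11.0% and 13.1% (exact permutation test, p = 0.6).

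**Figure D4:**
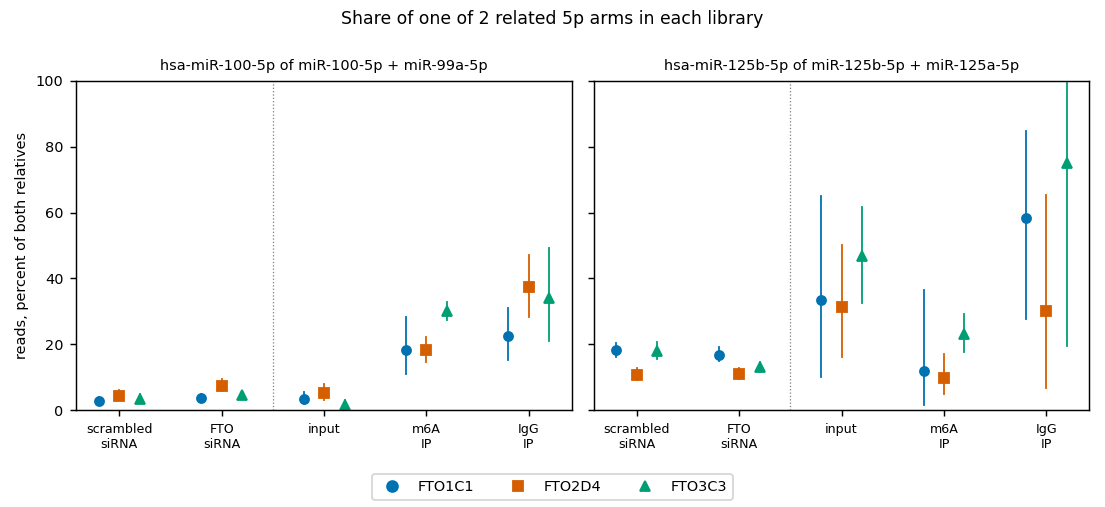
Share of hsa-miR-100-5p (with hsa-miR-99a-5p) and of hsa-miR-125b-5p (with hsa-miR-125a-5p) among the reads of both arms in each library, with the 95% exact interval of the counts. hsa-miR-100-5p holds under 8% in knockdown and input libraries and over 18% in all precipitates, and hsa-miR-125b-5p is lower in the 3 m6A libraries than in the 3 inputs.

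The let-7 genes that share transcripts with these families gave a view of the same clusters. In the knockdown none of their 7 listed arms, with hsa-miR-100-3p included, was called (median log2 fold change 0.39). hsa-let-7c-5p, of the miR-99a cluster, came nearest, at 206, 147 and 282 RPM with scrambled and 291, 256 and 372 RPM with FTO siRNA (0.57, edgeR adjusted p = 0.0656; higher in 3 of 3 clones). In the same transcript unit hsa-miR-99a-5p and hsa-miR-125b-2-3p were lower in 3 of 3 clones, also without a call, and the difference between these arms was not tested.

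The RIP-seq table lists 4 of these arms, and 3 of the 4 were higher in the m6A than in the IgG libraries, beside the 38.6% of all miRNAs. hsa-let-7e-5p, of the miR-99b cluster, had 341, 492 and 567 RPM against 14.8, 20.3 and 37.5 RPM (log2 fold change 4.37, edgeR adjusted p = 2.02e-05). From the same 0.71 kb, hsa-miR-125a-5p had 2.54 and hsa-miR-99b-5p 0.80, so that neighbours in 1 transcript had unlike values. hsa-let-7c-5p had 2.62 (adjusted p = 0.00186), beside 3.17 for hsa-miR-125b-2-3p and 0.50 for hsa-miR-99a-5p of its cluster. Like hsa-miR-125b-2-3p, hsa-let-7c-5p needed its m6A libraries to pass the filter on low counts. hsa-let-7a-5p had 4.53 (adjusted p = 9.83e-06) but is encoded at 3 loci. hsa-miR-4319, the other miRNA found with the miR-125 seed, was higher in the m6A libraries than in the input, as were 66.8% of all miRNAs (2.18, edgeR adjusted p = 0.000202). That call was lost with TMM factors (0.62, adjusted p = 0.243) and DESeq2 (0.58, adjusted p = 0.484), within a range that starts at 3.12e-06. All its input values lay below the filter, which it passed only through the m6A libraries.

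The consensus in which m6A is commonly found in mRNA was looked for on the mature strand, as a purine, a purine, A, C and then A, C or U. It occurred in 4 of the 10 arms: as GAACC at bases 9 to 13 of hsa-miR-99b-5p, as GAACU at bases 14 to 18 of hsa-miR-100-5p, and as AGACC at bases 7 to 11 of hsa-miR-125a-5p and hsa-miR-125b-5p, where it overlaps the seed. The same letters occur in 22.9% of the 1923 miRNAs of the RIP-seq table that have a RefSeq sequence. Of the 3 arms called against IgG, hsa-miR-125a-5p holds them and the 3p arms of miR-125b do not. In hsa-miR-100-5p the letters span U16A, so hsa-miR-99a-5p lacks them, yet neither arm was called against IgG.

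The pattern of hsa-miR-99b-5p, the most abundant of the arms in the input, over the 9 RIP-seq libraries was compared with that of 448 miRNAs of at least 100 RPM on average. The most alike were hsa-miR-25-3p (Pearson correlation of log2(RPM + 1) 0.956), hsa-miR-450b-5p (0.953), hsa-miR-8082 (0.94), hsa-miR-151a-5p (0.937) and hsa-miR-7705 (0.928). Of the other family members, hsa-miR-99a-5p (0.761) and hsa-miR-125b-2-3p (0.652) ran most nearly in parallel to it, while its own 3p arm, hsa-miR-99b-3p, ran opposite (-0.8), as did hsa-miR-100-5p (-0.735). These correlations describe 9 libraries in 3 kinds that share totals and clones, and carry no test.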

How the data were processed

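Small RNA of 3 HEK293-derived clones was sequenced in 6 knockdown and 9 RIP-seq libraries. The authors deposited a table of raw counts for each mature miRNA, not normalized. Per the study's methods, adapters were trimmed with cutadapt, and reads were assigned to the mature human miRNAs of miRBase by maximal exact matches, with a minimum length of the matches and of the bases they cover, the reference with the most matching bases being kept. Reads were not aligned to a genome, and coordinates and sequences were taken from RefSeq (GRCh38.p14). Every count column was assigned to its sample by name, and 0 columns were left out.

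RPM were computed from the total miRNA reads. Differences were tested with edgeR 4.0.16 (glmQLFit, then glmQLFTest; filterByExpr at a minimum of 10 counts; the miRNA reads of each library as its size, unscaled; the clone as a block; only the 2 groups compared) across all miRNAs, two-sided, with Benjamini-Hochberg adjustment at 0.05. Fold changes are log2, with the standard error as SE and 95% intervals from the degrees of freedom of the edgeR fit. Shares carry 95% exact (Clopper-Pearson) intervals, and intervals of counts cover counting error only. The 3 libraries of a group stem from 3 clones. The edgeR p-values combine the spread between clones with a spread estimated over all miRNAs. The degrees of freedom were 10.0 (knockdown), 8.98 (m6A against IgG), 29.2 (m6A against input) and 3882 (IgG against input). They were 2152 for m6A against IgG without FTO1C1 and 4366 for m6A against input with totals without hsa-miR-6080. The p-values of fits with such high values rest mainly on the pooled spread. R 4.3.3, limma 3.58.1, DESeq2 1.42.0, Python 3.11.15, pandas 2.3.3, scipy 1.17.1 and matplotlib 3.10.9 were used, and the edgeR test was tested on simulated data.

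The clone pairs the libraries, since libraries of 1 name come from the same clone. Correlations of the paired deviations from the group mean were 0.190, 0.118 and 0.165 in the knockdown and lay between -0.0747 and 0.0573 in the RIP-seq comparisons. Libraries of a group differed by more than sampling noise (chi-square per degree of freedom at least 7.79), so none was counted as a copy.

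The miRNAs described and the lists were chosen with earlier results of these data known. Named were all 10 family arms, the arms of the let-7 genes and miR-100-3p in the same clusters, miRNAs with the seed of a 5p member, markers of other cell types, and the 5 miRNAs most alike to the most abundant arm of the input. The alternatives were TMM factors, DESeq2, no filter, no replicate block, totals without miR-6080, all 9 RIP-seq libraries in 1 fit, summed 5p relatives, and each clone left out.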

Additional observations from a re-analysis of the deposited data

How the results depend on the processing

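Without the replicate block (the pairing by clone) the counts of arms called were 0 in the knockdown, 3 for m6A against IgG, 5 for m6A against input and 5 for IgG against input, equal to the paired counts, and of the directions only hsa-miR-125b-5p in IgG against input turned, to -0.09. Without the block, 41, 882, 1728 and 1186 of all miRNAs were called in the 4 comparisons, in the order given. DESeq2 called 1 arm in the knockdown, beside 91 of all miRNAs. Totals without hsa-miR-6080 called 8 arms for IgG against input, beside 1504 of all 1975 miRNAs. Leaving out 1 clone at a time gave 1 to 3 arms for m6A against IgG (1 without FTO2D4, beside 470 of 1999 miRNAs). It gave 3 to 5 arms for IgG against input (3 without FTO1C1, beside 840 of 1972 miRNAs). Of the 346 values recomputed for the 10 arms, 267 kept their direction and their side of the threshold, and 42 turned, with or without a change of call. The others kept their direction, and 19 of them lost the call and 18 gained one. A sum of 5p relatives was counted once for each tested arm in it. TMM and DESeq2 moved the median of all miRNAs to near 0, and totals without hsa-miR-6080 moved it to 0.10 for m6A against IgG, 2.12 for m6A against input and 1.67 for IgG against input, so directions hold only relative to a scale. For the other turned values the cause was not tested. The precision was limited by the IgG libraries, where 1 read is worth up to 5.36 RPM.

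In the knockdown the log2 fold changes that turned negative with TMM and DESeq2 were those of hsa-miR-99b-3p (-0.17 and -0.17), hsa-miR-100-5p (-0.09 and -0.091), hsa-miR-125a-5p (-0.27 and -0.27), hsa-miR-125a-3p (-0.026 and -0.028), hsa-miR-125b-1-3p (-0.26 and -0.26) and hsa-miR-4319 (-0.088 and -0.075). The summed 5p relatives gave -0.13 (miR-99/100) and -0.013 (miR-125). Leaving out 1 clone gave ranges across 0 for hsa-miR-99b-5p (-0.17 to 0.054), hsa-miR-125a-5p (-0.062 to 0.070), hsa-miR-125b-1-3p (-0.15 to 0.14), hsa-let-7a-5p (-0.29 to 0.22), hsa-let-7a-2-3p (-0.015 to 0.69), hsa-let-7e-5p (-0.16 to 0.072) and hsa-miR-4319 (-0.13 to 0.64).

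For m6A against IgG, hsa-miR-99a-5p turned to -0.24 (TMM), -0.29 (DESeq2) and -0.18 (totals without hsa-miR-6080), hsa-miR-125a-3p to -0.40 and -0.36 (TMM, DESeq2), hsa-let-7c-3p to -0.004 (DESeq2) and hsa-miR-100-5p to 0.46 when summed with its relatives. Leaving out 1 clone gave -0.007 to 0.77 for hsa-miR-99a-5p, -0.34 to 0.15 for hsa-miR-99b-3p and -0.35 to 1.82 for hsa-let-7c-3p.

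For m6A against input, TMM and DESeq2 turned hsa-miR-99a-3p (-1.24 and -1.27), hsa-miR-99b-3p (-0.90 and -0.93), hsa-miR-125a-3p (-0.48 and -0.50), hsa-let-7a-5p (-0.53 and -0.55) and hsa-let-7c-5p (-0.26 and -0.28). Totals without hsa-miR-6080 turned hsa-miR-125b-5p (0.27) and hsa-miR-125b-2-3p (0.44), and summing relatives gave -0.85 for miR-99/100 and 1.27 for miR-125. Leaving out 1 clone gave -0.14 to 0.66 for hsa-miR-99a-3p and -0.22 to 0.096 for hsa-miR-125b-2-3p. For IgG against input, hsa-miR-125b-5p turned with TMM (-0.25), DESeq2 (-0.32) and summing (-0.16) and ranged from -0.38 to 0.85 without 1 clone. There, summing gave -1.31 for miR-99/100, hsa-let-7c-3p ranged from -0.018 to 1.60, and hsa-let-7e-5p was 0.35 with totals without hsa-miR-6080.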
